A study of Mus musculus with 22 samples.

Results

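The 9 genes described here (Il12a, Prkcq, Tnip3, Rnf19b, Kcnk5, Slc7a8, Cited2, Nfil3 and Itsn1), of the 22180 measured, were picked because they had higher values with a gamma-secretase inhibitor than with its solvent in nearly all 11 paired cultures of mouse fetal liver stem cells. The arrays come from SLAM LSK cells, the haematopoietic stem cells of the liver, of C57Bl/6J wild-type embryos at E14.5. Whole fetal liver cells were first cultured on OP9-DL1 stroma, a bone marrow stromal line that carries the Notch ligand Dll1, with the gamma-secretase inhibitor (GSI, 1 µM) or DMSO, and the stem cells were sorted afterwards. Culture for 10 h gave 4 GSI samples and their 4 DMSO partners, and culture for 4 h gave 7 GSI samples and their 7 DMSO partners, with partners from the same biological replicate. Every group met the Notch ligand, no sample analysed here was cultured without stroma, and GSI acts on every substrate of the enzyme, not on Notch alone.

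Notch receptors are cut by gamma-secretase when a ligand on a neighbouring cell engages them, and the freed intracellular part joins the DNA-binding protein RBPJ to switch on target genes. Hes1, the classical target, encodes a repressor that binds N-box and class C sites, and it is known to hold down other genes. The 9 genes encode a cytokine subunit (Il12a), signalling proteins (Prkcq, Tnip3), a ubiquitin ligase (Rnf19b), membrane transport proteins (Kcnk5, Slc7a8), transcriptional regulators (Cited2, Nfil3) and an endocytic scaffold (Itsn1).

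Promoters are shown for the 4 genes whose 250 bases before the start hold a letter match to an RBPJ site (TGGGAA) or to the N-box of Hes repressors (CACNAG), since RBPJ and Hes1 act below Notch. The sequences are from RefSeq, GRCm38.p6, run 5′ to 3′ and end at the base before the annotated start. Capitals mark the match, on either strand. Kcnk5 and Slc7a8 both lie on chromosome 14, and the other 7 genes each on a chromosome of their own. For Il12a, which has 2 annotated starts, the upstream one is shown.
Il12a promoter, chr3:68690394-68690643, plus strand: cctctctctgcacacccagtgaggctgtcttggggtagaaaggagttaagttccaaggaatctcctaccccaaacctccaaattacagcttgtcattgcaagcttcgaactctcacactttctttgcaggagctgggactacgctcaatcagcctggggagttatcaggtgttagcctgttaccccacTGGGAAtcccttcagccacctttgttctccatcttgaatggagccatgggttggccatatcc
Tnip3 promoter, chr6:65590148-65590397, plus strand: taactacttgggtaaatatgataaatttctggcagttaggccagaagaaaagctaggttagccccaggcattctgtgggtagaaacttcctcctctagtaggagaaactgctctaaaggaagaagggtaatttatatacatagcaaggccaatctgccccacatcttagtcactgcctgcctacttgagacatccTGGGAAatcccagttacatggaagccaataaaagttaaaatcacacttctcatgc
Kcnk5 promoter, chr14:20181783-20182032, minus strand: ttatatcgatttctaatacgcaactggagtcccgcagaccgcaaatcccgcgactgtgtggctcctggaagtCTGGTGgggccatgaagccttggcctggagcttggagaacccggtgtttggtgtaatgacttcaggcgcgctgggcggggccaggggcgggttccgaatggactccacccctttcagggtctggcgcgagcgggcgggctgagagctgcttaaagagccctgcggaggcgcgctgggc
Itsn1 promoter, chr16:91729121-91729370, plus strand: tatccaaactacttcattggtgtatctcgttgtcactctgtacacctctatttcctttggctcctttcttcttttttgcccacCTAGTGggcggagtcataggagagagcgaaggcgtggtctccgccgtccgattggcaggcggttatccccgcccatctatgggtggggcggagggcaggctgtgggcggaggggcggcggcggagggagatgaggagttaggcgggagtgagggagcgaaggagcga
TGGGAA was found in 2 of the 10 windows of the 9 genes, beginning 62 bases before the start in Il12a and 55 in Tnip3, and in 21.6% of 32851 mouse windows of the same length. CACNAG was found in 3 of the 10 (Kcnk5, Itsn1 and the downstream Il12a window), against 36.7% of all windows. In Tnip3 the TGGGAA match overlaps a match to a loose NF-kB core (GGG and CC with any 5 bases between), which reads GGGAAATCCC. That core was in 7 of the 10 windows, against 45.8% of all. The E-box CACGTG was found only in Cited2 of the 9 genes (6.02% of all windows). The class C site CACGCG (7.62%), the site of Nfil3 and related factors TTACNTAA (2.06%) and the cAMP element TGACGTCA (1.55%) were not in any of the 10. Matches on both strands were counted, and a match of letters is a description, not a binding site.

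Values are RMA log2 expression as deposited, so a difference of 1 is a doubling. Array medians were 4.45 to 4.52 at 10 h and 5.03 to 5.12 at 4 h, so levels of the deposited values are compared only within a time. As a check of the inhibitor, Hes1 was lower with GSI in 11 of 11 pairs, with a difference of -1.36 ± 0.117 (SE) at 10 h (limma adjusted p = 4.7e-05) and of -0.97 ± 0.088 at 4 h (limma adjusted p = 0.00020). The feedback genes Nrarp and Dtx1 differed by -0.25 and 0.05 at 10 h and by -0.10 and 0.10 at 4 h, and did not pass. Of the defining markers, Kit averaged 9.30 in GSI and 9.14 in DMSO at 10 h. Slamf1, which encodes the SLAM marker CD150, was low, at 4.97 in GSI and 4.74 in DMSO at 10 h, and at 4.01 in GSI and 3.98 in DMSO at 4 h. The probe of Ly6a (Sca-1) was not used here. In such bulk samples fewer cells of a type and less RNA per cell cannot be told apart.

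All 9 genes had a positive mean difference (GSI minus DMSO) at both times, which the choice of genes fixes and no test is given for. Il12a, Tnip3, Rnf19b, Kcnk5 and Slc7a8 were higher with GSI in 11 of 11 pairs, and Prkcq, Cited2, Nfil3 and Itsn1 in 10 of 11. Of all genes 0.126% were higher in 11 of 11 pairs and 1.32% in at least 10. The median of the 9 mean differences was 0.82 at 10 h (range 0.29 to 1.23) and 0.60 at 4 h (range 0.34 to 0.74), where the median over all 22180 genes was -0.01 and 0.01. Of single within-pair differences, 35 of 36 were above 0 at 10 h and 60 of 63 at 4 h. The 9 are not the only genes with this pattern. At least 10 positive pairs and a smaller-of-both time mean of 0.29 or more were met by 9 genes positive in 11 pairs and 33 positive in 10, with the 9 members among them. Just outside the list, the 5 other genes with the highest smaller mean among those positive in all 11 pairs were Dhrs3 (0.50 at 10 h and 0.64 at 4 h), Tox (0.47 and 0.36), Rnf24 (0.83 and 0.32), Gata2 (0.34 and 0.29) and Plin3 (0.40 and 0.28). Just inside it, Nfil3 had 0.29 at 10 h and Itsn1 0.34 at 4 h.

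**Figure D1:**
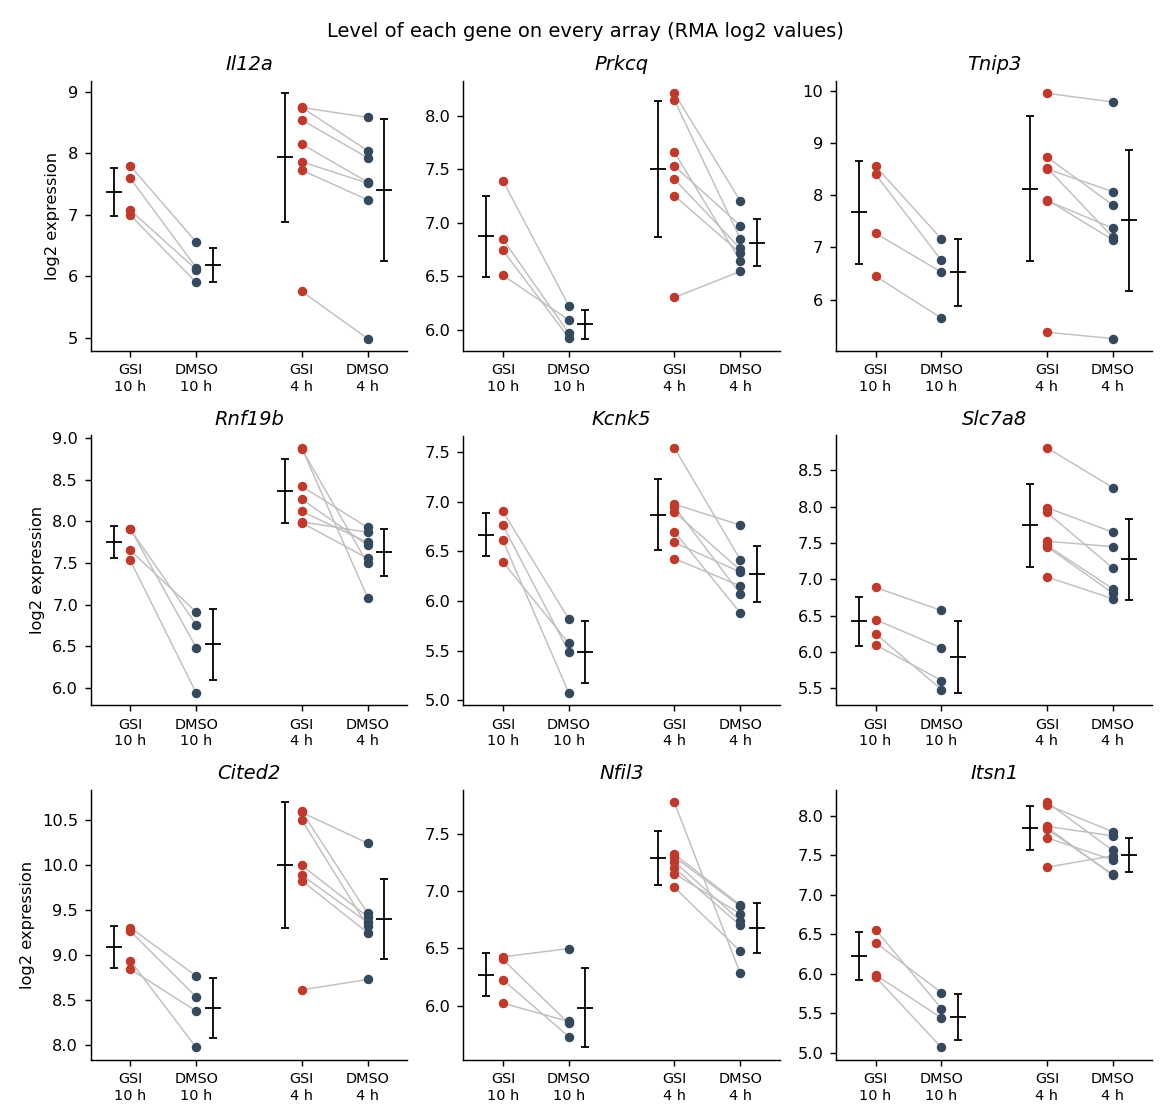
Level of each of the 9 genes on every array (y axis, RMA log2 expression), with GSI (red) left of DMSO (dark blue) at 10 h and at 4 h; grey lines join the 2 arrays of a pair, and black bars are the mean and SD of the group (n = 4 at 10 h, n = 7 at 4 h). For Rnf19b the GSI and DMSO points do not overlap at either time, while for Nfil3 they overlap at 10 h and not at 4 h.

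Il12a encodes the p35 subunit, which pairs with p40 (Il12b) to form interleukin 12 and with Ebi3 to form interleukin 35. At 10 h its level was 6.99, 7.07, 7.79 and 7.59 in the GSI arrays of pairs 1 to 4, against 5.90, 6.11, 6.55 and 6.14 in their DMSO partners. Every GSI array lay above every DMSO array, and the mean difference was 1.19 ± 0.208 (SD, n = 4 pairs), or 2.28-fold. At 4 h the lowest, median and highest levels were 5.75, 8.15 and 8.74 in GSI and 4.99, 7.53 and 8.58 in DMSO. These ranges overlap, with pair 6 low in both arrays, and the within-pair difference of 0.53 ± 0.214 (SD, n = 7 pairs) was positive in each. For Il12a the lowest difference at 10 h (0.96) exceeded the highest at 4 h (0.77), which was the case for no other of the 9 genes. The share of all genes with this order was not computed, and the difference between the times was not tested, so nothing is read from it.

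Prkcq encodes protein kinase C theta, a kinase known for signalling below the T-cell receptor. Its level at 10 h was 7.39, 6.84, 6.51 and 6.74 in GSI, against 6.22, 5.97, 6.09 and 5.93 in DMSO, and the groups did not overlap. The difference was 0.82 ± 0.309 (SD, n = 4), or 1.76-fold. At 4 h it had a lowest, median and highest level of 6.30, 7.53 and 8.21 in GSI and of 6.55, 6.76 and 7.20 in DMSO. Of the 7 GSI arrays 6 lay above the highest DMSO array, and the one that did not, pair 6, was below its own partner (difference -0.24). The mean difference at 4 h was 0.69 ± 0.497 (SD, n = 7).

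Tnip3 encodes a partner of A20 (Tnfaip3) that restrains NF-kB signalling in human cells. At 10 h its level was 6.45, 7.27, 8.56 and 8.40 in GSI, against 5.65, 6.53, 7.16 and 6.75 in DMSO. The spread between cultures was wide and the groups overlapped, but each GSI array exceeded its partner, by 0.81, 0.75, 1.39 and 1.65. The mean difference was 1.15 ± 0.444 (SD, n = 4), or 2.22-fold. At 4 h the level spanned 5.38 to 9.95 in GSI (median 8.50) and 5.26 to 9.79 in DMSO (median 7.37). Between cultures Tnip3 thus varied far more than within pairs, where the difference was 0.61 ± 0.432 (SD, n = 7).

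Rnf19b encodes a membrane-bound ubiquitin ligase of the RING-between-RING class, known from natural killer cells and macrophages. Its level at 10 h was 7.53, 7.65, 7.91 and 7.91 in GSI, against 5.94, 6.91, 6.76 and 6.48 in DMSO, a difference of 1.23 ± 0.373 (SD, n = 4) or 2.34-fold. At 4 h the lowest, median and highest levels were 7.98, 8.26 and 8.88 in GSI and 7.08, 7.71 and 7.93 in DMSO. All 7 GSI arrays lay above all 7 DMSO arrays, with a difference of 0.74 ± 0.61 (SD, n = 7). Rnf19b and Nfil3 were the 2 of the 9 genes whose groups did not overlap at 4 h (0.0271% of all genes). Rnf19b was also among the 6 that did not overlap at 10 h (1.41% of all genes), beside Il12a, Prkcq, Kcnk5, Cited2 and Itsn1. Nothing is read from these counts, since the genes were chosen on this contrast.

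Kcnk5 encodes a potassium leak channel that senses pH outside the cell. Its level at 10 h was 6.61, 6.76, 6.90 and 6.39 in GSI, against 5.07, 5.49, 5.82 and 5.57 in DMSO, and the groups did not overlap (difference 1.18 ± 0.304, SD, n = 4, or 2.27-fold). At 4 h it had a lowest, median and highest level of 6.43, 6.90 and 7.55 in GSI and of 5.88, 6.29 and 6.77 in DMSO, a difference of 0.60 ± 0.355 (SD, n = 7). Slc7a8 encodes the light chain of an exchanger of neutral amino acids that works together with the heavy chain Slc3a2. Its level at 10 h was 6.10, 6.89, 6.44 and 6.25 in GSI, against 5.60, 6.57, 6.05 and 5.48 in DMSO. The groups overlapped, and the difference of 0.49 ± 0.199 (SD, n = 4) was the lowest at 10 h after that of Nfil3. At 4 h the Slc7a8 level spanned 7.03 to 8.81 in GSI (median 7.52) and 6.73 to 8.26 in DMSO (median 7.15), with a difference of 0.47 ± 0.239 (SD, n = 7). The mean difference at 10 h exceeded that at 4 h by 0.58 for Kcnk5 and by 0.03 for Slc7a8, and this was not tested.

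Cited2 encodes a co-regulator that binds the CBP coactivator, limits HIF activity and is needed for mouse fetal liver haematopoiesis. At 10 h its level was 8.84, 9.30, 9.26 and 8.93 in GSI, against 8.37, 8.76, 8.53 and 7.97 in DMSO, without overlap (difference 0.68 ± 0.224, SD, n = 4, or 1.60-fold). At 4 h the lowest, median and highest levels were 8.61, 10.00 and 10.60 in GSI and 8.72, 9.36 and 10.24 in DMSO. The 4 h groups overlapped, pair 6 had a difference of -0.12, and the mean difference was 0.60 ± 0.45 (SD, n = 7). Nfil3 encodes a bZIP repressor that mouse natural killer and innate lymphoid cells need for their development. It was the only 1 of the 9 with a lower mean difference at 10 h than at 4 h. At 4 h the lowest, median and highest levels were 7.03, 7.26 and 7.77 in GSI and 6.28, 6.74 and 6.88 in DMSO, and the difference of 0.61 ± 0.394 (SD, n = 7) includes 1.49 in pair 2. At 10 h the Nfil3 level was 6.40, 6.22, 6.02 and 6.43 in GSI, against 5.84, 5.73, 5.86 and 6.50 in DMSO. No GSI array lay above the highest DMSO array there, 3 of 4 pairs were positive, and the difference was 0.29 ± 0.296 (SD, n = 4), about as large as its own SD.

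Itsn1 encodes intersectin, a scaffold of clathrin-mediated endocytosis that also activates Cdc42 in its long form. Its level at 10 h was 6.56, 6.40, 5.99 and 5.96 in GSI, against 5.56, 5.76, 5.44 and 5.07 in DMSO, without overlap (difference 0.77 ± 0.214, SD, n = 4, or 1.70-fold). At 4 h it had a lowest, median and highest level of 7.35, 7.86 and 8.17 in GSI and of 7.25, 7.50 and 7.80 in DMSO, and 5 of 7 GSI arrays lay above the highest DMSO array. Its difference of 0.34 ± 0.285 (SD, n = 7) was the lowest of the 9 at 4 h.

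**Figure D2:**
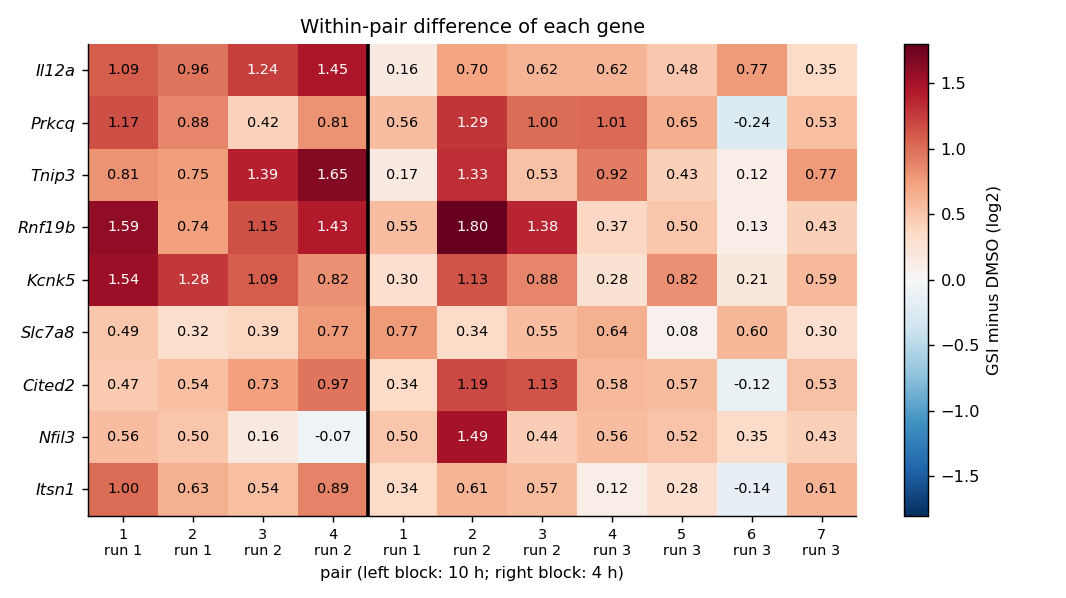
Within-pair difference (GSI minus DMSO, log2, colour and printed value) of each gene (rows) in each pair (columns), with the 4 pairs at 10 h left of the 7 pairs at 4 h and the run of each pair below its number. The 4 values below 0 are Prkcq, Cited2 and Itsn1 in pair 6 at 4 h and Nfil3 in pair 4 at 10 h.

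The mean difference over the 9 genes ranged more widely over the 7 pairs at 4 h than over the 4 pairs at 10 h. This was not tested, and a larger number of pairs alone can widen a range. The mean over the 9 genes was 0.968, 0.732, 0.790 and 0.969 in pairs 1 to 4 at 10 h, and 0.409, 1.10, 0.789, 0.567, 0.481, 0.186 and 0.505 in pairs 1 to 7 at 4 h. Pair 6 at 4 h was the lowest, with 6 of 9 genes positive. Codes in the sample descriptions, whose meaning is not stated, put the pairs in runs. At 10 h the median over the 9 genes was 0.818 in run 1 (pairs 1 and 2) and 0.850 in run 2 (pairs 3 and 4). At 4 h it was 0.342 in run 1 (pair 1 alone), 0.968 in run 2 (pairs 2 and 3) and 0.464 in run 3 (pairs 4 to 7). Within run 2 the 4 h values of Rnf19b (1.59), Kcnk5 (1.00) and Cited2 (1.16) lay more than 1 SD above their means over all pairs. In run 1 at 4 h, which is pair 1 alone, Slc7a8 (0.77) lay more than 1 SD above its mean. Il12a (0.16) and Tnip3 (0.17) lay more than 1 SD below theirs in that pair.

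Over the 11 within-pair differences, centred within each time, 26 of the 36 correlations between the 9 genes were above 0 (median r = 0.37, a description; the 11 points share their arrays and runs). The same figures for other sets of genes were not computed, so nothing is read from this count. Rnf19b and Cited2 varied most alike (r = 0.80) and Kcnk5 and Slc7a8 least (r = -0.63). Slc7a8 had the lowest mean r with the others (-0.14), followed by Il12a (0.12), against 0.32 (Nfil3) to 0.54 (Rnf19b) for the rest. Of all other genes, those with the highest mean r with the 9 were Tas2r110 (0.58), Gabpb2, Kynu, Tnrc6a, Bcl6, Psmc4, Nt5dc3, Med17, Ubxn7 and Ppif (0.54), over 11 pairs. Among them Kynu had mean differences of 0.48 at 10 h and 0.50 at 4 h and was positive in 10 of 11 pairs. Tas2r110 had differences of -0.0027 and -0.05 at a low level of 2.74. These 10 genes are the top of a search over all genes with 11 points. How high such a search reaches without any relation was not computed, so nothing is read from them.

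Markers of other cells moved with some pairs. In pair 1 at 4 h the mean difference was 1.37 for the 12 neutrophil and monocyte markers, 0.961 for the 13 OP9 stromal markers, 0.709 for the 12 macrophage markers, 0.558 for the 10 hepatocyte markers and 0.484 for the 6 megakaryocyte markers, where the 9 genes had 0.409. At 10 h the OP9 stromal list had the lowest mean of all lists (-0.35, with 2 of 13 genes positive), with 0.202, -0.746, -0.624 and -0.212 in pairs 1 to 4. The neutrophil and monocyte list was below 0 in 4 of 4 pairs at 10 h (mean -0.21, 5 of 12 genes positive). Of the 7 measured erythroid markers 0 had a positive mean difference at either time, with list means of -0.15 at 10 h and -0.21 at 4 h. The erythroid list was below 0 in 4 of 4 pairs at 10 h, and lay between -0.872 (pair 4) and 0.214 (pair 3) at 4 h. The hepatocyte list reached 1.19 in pair 3 at 10 h and -1.11 in pair 7 at 4 h. In the other 4 h pairs the macrophage list lay between -0.124 and 0.186. At 10 h the macrophage list was below 0 in 4 of 4 pairs (-0.321 to -0.0029). Its mean level spanned 4.90 to 5.48 in GSI and 4.96 to 5.80 in DMSO at 10 h, and 6.25 to 7.56 in GSI and 6.33 to 7.52 in DMSO at 4 h. Of its 12 genes 3 had a positive mean difference at 10 h and 9 at 4 h. The 8 measured stem cell markers had the same sign as the 9 genes at 10 h, with list means of 0.789, 0.268, 0.162 and 0.316 in pairs 1 to 4 and 7 of 8 genes positive. At 4 h their mean difference was 0.09, with 7 of 8 genes positive, and it was below 0 in pairs 1 and 5 (-0.031 and -0.037). Their mean level spanned 7.52 to 7.96 in GSI and 7.17 to 7.68 in DMSO at 10 h, and 7.95 to 8.89 in GSI and 7.93 to 8.77 in DMSO at 4 h. The 8 dendritic cell markers, of cells that make interleukin 12, had list means of 0.305, 0.258, -0.083 and 0.047 at 10 h, with 3 of 8 genes positive. The widest difference in that list was that of Flt3, which early progenitors also express, at 6.17 in GSI and 4.90 in DMSO at 10 h. The part of these markers in the differences of the 9 genes was not tested.

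Relatives and partners of the 9 genes, which were not used to choose them, show whether whole families had higher values with GSI. Of 108 such genes in 10 lists 101 were measured. With limma across all 22180 genes (pair as a block, Benjamini-Hochberg adjusted p under 0.05), 2 rose and 0 fell at 10 h, where 0.555% of all genes rose and 0.113% fell. At 4 h 0 rose and 0 fell, where 0% of all genes rose and 0.00451% fell (an unadjusted p under 0.05 was found for 20 of the 101 relatives and 3122 of the 22180 genes at 10 h, and for 6 relatives and 934 genes at 4 h). The median difference over the 101 was 0.04 at 10 h and 0.02 at 4 h, against -0.01 and 0.01 over all genes.

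Both genes that rose at 10 h are relatives of a member. Hlf, a stem cell transcription factor that shares its DNA site with Nfil3, was at 7.46, 7.90, 6.82 and 6.72 in GSI, against 6.54, 6.81, 6.42 and 6.22 in DMSO, a rise of 0.73 ± 0.132 (SE, n = 4 pairs, limma adjusted p = 0.0236). Prkce, which encodes protein kinase C epsilon, was at 6.06, 6.66, 6.68 and 5.66 in GSI, against 5.57, 5.68, 5.95 and 5.28 in DMSO, a rise of 0.65 ± 0.128 (SE, n = 4 pairs, limma adjusted p = 0.0369). Each GSI array exceeded its partner in both genes, and for both the groups overlapped. Hlf is also 1 of the stem cell markers above. Hlf lost it in 7 and Prkce in 8 of 9 alternatives, among them leaving out pair 1, 2 or 4 for Hlf and any 1 pair for Prkce, with adjusted p up to 0.910 and 0.811 (no replicate block).

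In the other lists no gene passed at either time, and the gene with the smallest p at 10 h is given for each. Ebi3, the partner of p35 in interleukin 35, differed by 0.56 ± 0.147 (SE, limma adjusted p = 0.0952), whereas Il12b, which encodes p40, differed by 0.0039 at a level near 4.31 (limma adjusted p = 0.993). Slc7a11, the cystine transporter, differed by -0.87 ± 0.216 (SE, limma adjusted p = 0.0781), opposite in sign to Slc7a8. Among the RING-between-RING ligases Rnf14 differed by 0.31, and Rnf19a, the closest relative of Rnf19b, by -0.11 (limma adjusted p = 0.830). Tnip1, a relative of Tnip3, differed by 0.23. The channel Kcnk15 differed by -0.16, the transcription factor Tfap2c, whose family Cited proteins bind, by 0.23, the lymphoid factor Tox by 0.47 and the endocytic adaptor Eps15 by -0.22. For Rnf14, Tnip1, Kcnk15, Tfap2c, Tox and Eps15 the limma adjusted p lay between 0.142 and 0.595. A p that misses the threshold does not show that these genes did not differ.

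**Figure D3:**
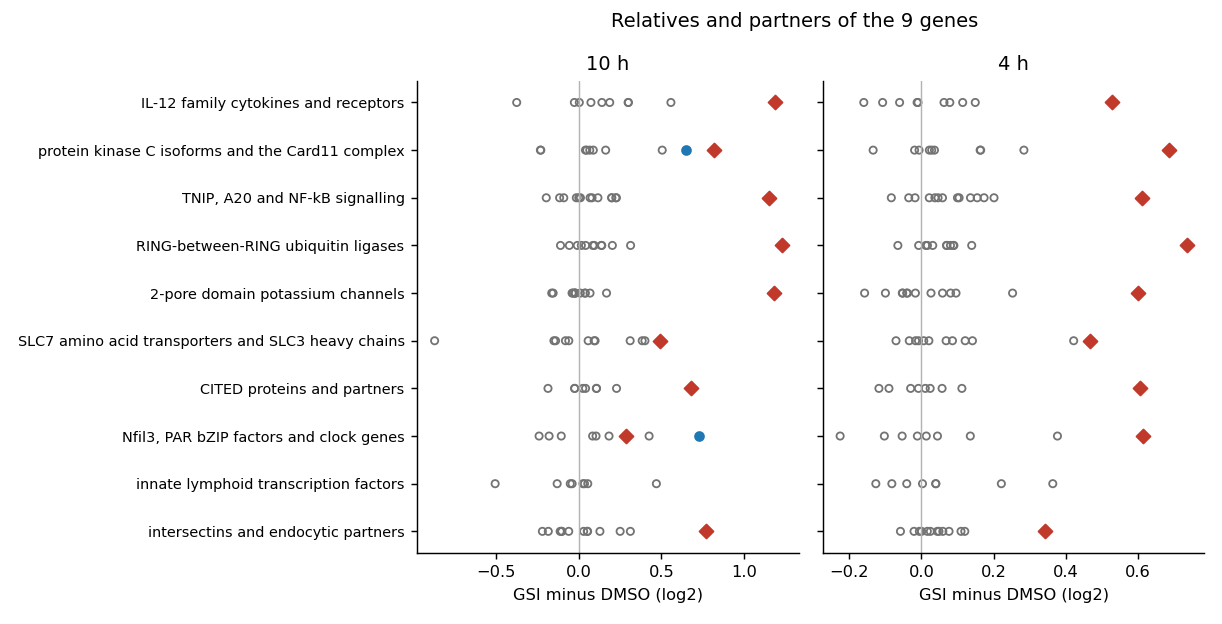
Mean difference (GSI minus DMSO, log2, x axis) of relatives and partners of the 9 genes at 10 h (left) and 4 h (right); open circles are measured relatives that did not pass, filled blue circles those that passed limma, and red diamonds the member itself, which was chosen on this contrast and not tested. The filled circles are Prkce and Hlf at 10 h.

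Between 10 h and 4 h, a comparison that was not used to choose the genes, Itsn1 fell in both treatments. On values quantile-normalized over all 22 arrays its mean level was 6.61 at 10 h and 7.65 at 4 h in GSI (-1.04 ± 0.169, SE, n = 4 and 7 arrays, limma adjusted p = 0.000797). In DMSO it was 5.90 at 10 h and 7.30 at 4 h (-1.40 ± 0.161, SE, limma adjusted p = 0.000144). Over its 14 alternatives per treatment the adjusted p stayed at or below 0.00405. Nfil3 fell in GSI, with 6.65 at 10 h and 7.07 at 4 h (-0.42 ± 0.145, SE, limma adjusted p = 0.0383), and had a difference of -0.01 in DMSO, and whether the treatments differ was not tested. In GSI 2 of 9 genes fell (17% of all genes did) and 0 rose (19.1% did). In DMSO 1 of 9 fell (15.2% of all genes did) and 0 rose (18.7% did). With 9 genes these counts are near the background, and nothing is read from them. The other 7 genes had differences of -0.75 (Slc7a8) to 0.39 (Kcnk5) in GSI and of -0.70 (Slc7a8) to -0.09 (Prkcq) in DMSO, and did not pass. No run holds both times, so run and time cannot be told apart, and in the deposited values the median gene differed by -0.42 between 10 h and 4 h in GSI and by -0.41 in DMSO. Markers of other cells also stood differently at each time. In DMSO the 8 endothelial markers were at 6.83 beside 7.28 for the stem cell list at 10 h, and at 9.32 beside 8.55 at 4 h (list means, median over arrays). The hepatocyte list was at 5.33 at 10 h and 7.60 at 4 h, and the erythroid list at 7.87 and 7.50. Their part in the falls of Itsn1 and Nfil3 was not tested.

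Single arrays decide several of these calls. Nfil3 in GSI did not pass without replicate 2, 3, 5 or 7 of 4 h or replicate 2 or 3 of 10 h (adjusted p 7.8e-05 to 0.130 over all alternatives). In GSI, Slc7a8 passed without replicate 3 or 7 of 4 h or replicate 2 of 10 h (-0.56, -0.87 and -0.89), Cited2 without replicate 6 of 4 h (-0.80) and Kcnk5 without replicate 2 of 4 h (0.50). In DMSO, Il12a passed without replicate 6 of 4 h (-0.9996), Cited2 likewise (-0.64), Rnf19b without replicate 2 of 4 h (-0.57) and Slc7a8 without replicate 2 of 10 h (-0.89).

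The 7 DMSO cultures at 4 h, which received no inhibitor, differ in their own Hes1 level, and the Il12a level ran opposite to it. In cultures 1 to 7 Hes1 was at 7.49, 8.08, 8.30, 8.08, 8.80, 9.76 and 8.39. Il12a was at 8.58, 8.04, 7.92, 7.53, 7.24, 4.99 and 7.51 in the same cultures. The highest Hes1 level (culture 6) came with the lowest Il12a level and the lowest Hes1 level (culture 1) with the highest. Pearson's r was -0.96 (exact permutation p = 0.00198, 0.0179 after Benjamini-Hochberg over the 9 genes) and Spearman's rho -0.96 (exact permutation p = 0.00278, 0.0250 adjusted), 2-sided, n = 7 cultures. Without cultures 6 and 1, the farthest from the median Hes1 level, r was -0.71 (n = 5), and without culture 6 alone -0.89. Of all genes 0.302% had an r as low. Il12a was not alone in this order: the stem cell marker Hlf was at 8.64, 8.44, 8.38, 7.96, 7.97, 5.31 and 7.97 in cultures 1 to 7, also lowest in culture 6 and highest in culture 1. Its part in the relation was not tested. The GSI partners of cultures 1 to 7 had Hes1 at 6.20, 7.07, 6.99, 7.13, 8.09, 9.01 and 7.61. With GSI, Hes1 was thus again lowest in culture 1 and highest in culture 6. The SD of Hes1 between the cultures at 4 h was 0.904 with GSI and 0.713 with DMSO. What sets the Hes1 level of a culture was not tested.

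No other of the 9 genes passed the test against Hes1 over the 7 DMSO cultures, which does not show that they differ from Il12a. Tnip3 (r = -0.85, exact permutation p = 0.0373, 0.130 adjusted; rho -0.54, exact permutation p = 0.236) and Cited2 (r = -0.84, exact permutation p = 0.0433, 0.130 adjusted; rho -0.43, exact permutation p = 0.354) rested on cultures 6 and 1. Without these, r was 0.52 for Tnip3 and 0.65 for Cited2. The other 6 genes had r between -0.56 (Prkcq) and 0.43 (Rnf19b). Culture 6 decides the sign for Kcnk5, whose r was 0.42 over all cultures, -0.64 without culture 6 and -0.74 without cultures 6 and 1. For Itsn1 r was -0.41 over all cultures, -0.70 without culture 6 and -0.46 without cultures 6 and 1. Without cultures 6 and 1 (n = 5) r was above 0 for Rnf19b (0.66) and Nfil3 (0.60), and near 0 for Slc7a8 (0.06) and Prkcq (-0.04). In the 7 GSI arrays at 4 h, with n = 7 and as a description, r with Hes1 was -0.92 for Il12a, -0.90 for Itsn1, -0.88 for Cited2, -0.87 for Tnip3 and -0.76 for Prkcq. It was -0.45 for Slc7a8, -0.40 for Rnf19b, -0.19 for Nfil3 and 0.13 for Kcnk5. These arrays share their cultures with the DMSO arrays, and the share of all genes with an r as low was not computed for them. The relation was looked for after the values were seen. Culture 1 is run 1, cultures 2 and 3 are run 2 and the others run 3, and the permutations do not take runs into account. Run 3 holds 4 cultures, too few for a correlation here; in order of rising Hes1 (cultures 4, 7, 5 and 6) their Il12a levels were 7.53, 7.51, 7.24 and 4.99. Both cultures at the ends of the Hes1 range stood apart in general. In culture 6, 22.6% of all genes had their lowest and 26.0% their highest 4 h DMSO level, as did 4 and 1 of the 9 genes. In culture 1 the shares of all genes were 18% and 20%, with 0 and 4 of the 9 genes.

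**Figure D4:**
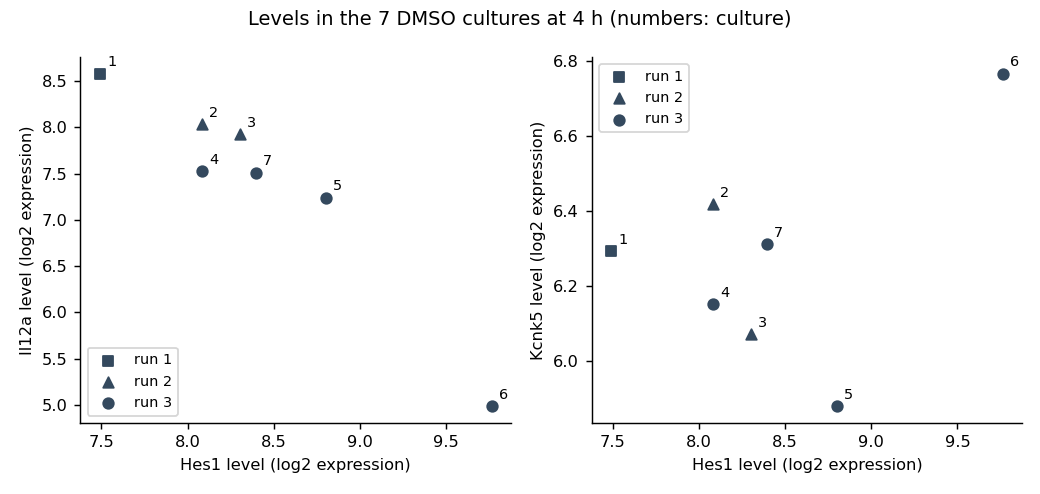
Level of Il12a (left) and Kcnk5 (right) against that of Hes1 (both axes log2 expression) in the 7 DMSO cultures at 4 h, numbered by culture and shaped by run. Il12a is lower where Hes1 is higher (r = -0.96), while for Kcnk5 r is 0.42 over all 7 cultures and -0.74 without cultures 6 and 1.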

How the data were processed

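RNA of sorted cells was hybridised to 22 one-colour arrays, 1 sample each. The authors deposited log2 expression values, for which the submitters' processing notes name RMA and Partek 6.6; the genome build is not given in the sources used here. Array medians differ between the times, and whether these were normalized together is not stated. Of 41345 probes, 23521 had 1 gene symbol, 1814 several and 16010 none listed in GEO's platform annotation; probes without exactly 1 were left out. The 1-symbol probe with the highest mean stood for each of 22180 genes, and each of the 9 members had 1 probe.

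GSI was compared with DMSO by within-pair differences and, for genes not chosen on it, with limma 3.58.1 (R 4.3.3; lmFit, eBayes with trend, 2-sided) on all arrays with the pair as a block, adjusted over all genes. The design text gives the pairing, and deviations of partners correlated at 0.213 to 0.449 at 10 h and 0.223 to 0.872 at 4 h. The DMSO array correlated best with its own GSI partner in 4 of 4 pairs at 10 h and in 6 of 7 at 4 h. Times were compared after quantile normalization, within each treatment. The p-values measure the spread between the biological replicates the design text names, whose small number limits how precise they are. Members and lists were chosen with earlier results of these data known. Named genes were the 9 members, Hes1, Nrarp and Dtx1, relatives that passed or had the smallest p of their list at 10 h, the 10 genes most like the members, and 5 genes just outside the list; Il12b, Rnf19a and the markers were named besides. The limma fits were tested on simulated data without pair or run effects, which cannot check what the pair block does. Alternatives were other normalizations, no replicate block, single times or runs, a level filter, and each pair left out.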

Additional observations from a re-analysis of the deposited data

Results flagged for a closer look

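In 54 groups of values of the 9 genes (levels per group and differences per time) 5 had 1 sample far from the others, where chance gives about 1 in 20. Il12a in replicate 6 at 4 h was far below the others, at 5.75 in GSI (next lowest 7.72) and 4.99 in DMSO (next lowest 7.24). Cited2 was lowest in the same culture with GSI, at 8.61 (next lowest 9.83). Nfil3 in replicate 2 at 4 h was far above the others with GSI, at 7.77 (next highest 7.32), and so was its difference of 1.49 in that pair (next highest 0.56).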

How the results depend on the processing

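Of 216 alternative values of the members' 18 mean differences 6 moved by more than 1 SD, all of them 4 h values taken within run 1 or within run 2. Their positive sign is fixed by the choice of genes and says nothing of stability, and averaging probes could change nothing with 1 probe per member. The median over the 9 genes at 4 h was 0.97 within run 2. Leaving out 1 pair gave 0.75 to 0.95 at 10 h. The paired differences have the same mean without the replicate block, so the block moved no member (median 0.82 at 10 h and 0.60 at 4 h). It does decide the limma calls: without it 0 genes passed limma at 10 h and 0 at 4 h (1363 and 360 at an unadjusted p under 0.05), against 148 and 1 with it. At 10 h 37 genes passed after quantile normalization, 66 after cyclic loess, 285 among genes above the median level, 2 with the 10 h arrays alone and 27 to 228 with 1 pair left out. At 4 h 2 passed with the 4 h arrays alone and 1 to 3 with 1 pair left out. Of the relatives 2 passed at 10 h. In limma this was 0 after quantile normalization, after cyclic loess, without the replicate block and with the 10 h arrays alone (at an unadjusted p under 0.05, 15, 17, 5 and 13 relatives and 2970, 2683, 1363 and 1864 of all genes), 3 among genes above the median level, and 0 to 1 with 1 pair left out. Between times, 8001 genes passed in GSI and 7523 in DMSO; deposited values gave 14895 and 13348, and the level filter, which tests fewer genes, 4497 and 4065. Members passing were 2 in GSI and 1 in DMSO, 5 and 7 with deposited values, and 1 to 3 in either treatment with 1 replicate left out. The cause was not tested. All gene-level calls at 10 h borrow the spread of the 4 h arrays. No detection calls were used, so signal over background sets an unknown limit for low genes such as Il12b.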
